A study of Homo sapiens with 6 samples.

Results

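NF-kappa-B is a family of dimeric transcription factors held inactive in the cytoplasm by IkB proteins until an upstream kinase complex marks the IkB for destruction. The freed dimers then switch on their own inhibitors, so that the response is damped by the genes it induces. The genes described here are 10 subunits and targets of this family. They are the 5 subunits RELA, RELB, REL, NFKB1 and NFKB2 and the inhibitors NFKBIA and NFKBIE. The others are the ubiquitin-editing enzyme gene TNFAIP3, the ubiquitin ligase gene BIRC3 and the adhesion molecule gene ICAM1, a target that is not an inhibitor. The 10 genes were taken by symbol from a list chosen by their FPKM in these same libraries. All 10 were present among the 26372 genes of the deposited table, and 7 of them were among the 12164 genes kept for testing, which had a mean of at least 1 FPKM (fragments scaled by transcript length and by the mapped total) over the libraries.

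The data came from BE(2)-M17, an established human neuroblastoma line, in 3 libraries of cells with GOMAFU knockdown and 3 libraries of control cells. GOMAFU, a long non-coding RNA, appears in the table as MIAT. The replicates were numbered 2, 3 and 4 in both groups. Values below are given in that order. The protocol describes lipid transfection of siRNA, miRNA mimics or inhibitors, without saying which library received what. Whether replicates were separate cultures is not given either, so a p-value measures the spread between these libraries, which may be technical.

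FPKM summed to between 579365 and 637153 in a library. The depth in reads is unknown, and depth relative to control replicate 3, read from the steps between low values, ran from 0.966 to 1.37. MIAT stood at 1.27, 1.32 and 3.21 FPKM in knockdown libraries, against 5.38, 5.96 and 8.57 FPKM in control libraries. Its log2 difference was -1.42 (SE 0.27), with unadjusted p = 0.00125 and adjusted p = 0.9998 (limma). The exact two-sided permutation test gave p = 0.1, the smallest that 3 against 3 allows. Knockdown replicate 4 stood apart: it correlated across genes with the other 5 libraries at 0.940 to 0.956, where those correlated with each other at 0.983 to 0.997. The noradrenergic neuroblastoma markers PHOX2A, HAND2, GATA2 and GATA3 were abundant, while TH stayed below 0.1 FPKM in every library. The 13 leukocyte markers summed to 1.68 to 3.30 FPKM in knockdown libraries and 1.62 to 2.27 FPKM in controls. PTPRC, the common leukocyte antigen gene, stayed below 0.1 FPKM, and 6 of the 13 were at 0 throughout. CD68, a macrophage marker, was at 2.57 FPKM in knockdown replicate 4 and at most 0.80 FPKM in the other libraries. Their part in the results was not tested. The 6 endothelial markers were below 1 FPKM in every library, and the 15 mesenchymal markers summed to 312 to 365 FPKM in knockdown libraries and 315 to 325 FPKM in controls. That sum came from a few genes: TWIST1 alone was at 155 to 198 FPKM in knockdown libraries and 154 to 175 FPKM in controls. Of the 15, 8 stayed below 1 FPKM in every library, with PRRX1 and COL1A2 at 0 throughout. In these bulk samples fewer cells of a type and less RNA per cell cannot be told apart.

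NF-kappa-B dimers bind DNA at kappa-B sites, and several genes of the loop are known to carry them. RefSeq promoter windows (250 bases before to 50 after a start, build GRCh38.p14) were searched for such letters; a match is a description, not a site. Windows were matched for 8 of the 10 genes, all but RELB and NFKBIE. The kappa-B consensus of 10 bases, searched on both strands, was present in a window of 6 of the 8: NFKBIA, NFKB1, REL, TNFAIP3, BIRC3 and NFKB2. Among all 35116 windows 11.3% held it, and among all 27305 genes with a window 13.3% held it in at least 1. The stretches below are shown because they hold matches, which are in capitals, and met limits set on length and on bases within an exon. Each runs 5′ to 3′ on the strand of its gene and lies before the RefSeq start.
NFKBIA, chr14:35404796-35404855, minus strand: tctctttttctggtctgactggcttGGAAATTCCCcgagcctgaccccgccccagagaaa
NFKB1, chr4:102501285-102501344, plus strand: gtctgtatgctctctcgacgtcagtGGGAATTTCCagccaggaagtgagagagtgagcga
REL, chr2:60881502-60881550, plus strand: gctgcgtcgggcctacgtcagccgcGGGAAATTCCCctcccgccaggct
TNFAIP3, chr6:137867167-137867217, plus strand: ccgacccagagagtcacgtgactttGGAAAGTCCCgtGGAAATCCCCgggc
BIRC3, chr11:102317260-102317383, plus strand: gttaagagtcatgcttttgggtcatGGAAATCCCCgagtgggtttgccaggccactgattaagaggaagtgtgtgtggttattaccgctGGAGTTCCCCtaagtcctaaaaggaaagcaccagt

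The matches of NFKBIA, NFKB1 and REL hold the same 10 letters, GGGAATTTCC, read on the minus strand relative to the gene in NFKBIA and REL and on the plus strand in NFKB1. That sequence, picked because more of these genes shared it than any other match, was in 0.145% of all windows. The REL match overlaps a second match by all but 1 base, so its capitals span 11 bases. TNFAIP3 and BIRC3 each hold 2 separate matches. NFKB2 has 3 windows, of which 2 hold matches, but no NFKB2 stretch met the limits for being shown. The consensus letters were not in the windows of RELA and ICAM1. Variants of the consensus and bases outside the windows were not searched, so a missing match does not show a missing site. The core of the interferon-stimulated response element, 10 bases searched on either strand, was in 1 of the 12 windows of these genes, a RELA window, against 3.57% of all windows. In GENCODE release 29, which uses the same genome build as the authors' hg38, between 0 and 30 bases of each stretch fall within an annotated exon of the gene. Stretches were cut to hold at most 30 such bases, so that upper value was set in advance.

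The genes were chosen with their values in these libraries known, so the comparison between knockdown and control is given as a description, without a test. Across the whole table limma called 0 of 12164 genes higher and 0 lower at an adjusted p under 0.05 (0% each way). An unadjusted p under 0.05 was reached by 118 genes with higher values (0.97%) and 145 with lower ones (1.19%). Of the 10 genes, 9 had a higher mean log2 value in knockdown libraries and 1, RELA, a lower one. Of the 7 kept genes 6 were higher, where 46.7% of all kept genes were. For 4 of the 10 all 3 knockdown values lay above all 3 control values (RELB, NFKB1, NFKBIA and BIRC3), and for 0 below; among the 18663 genes above 0 in any library this held for 4.02% in the higher direction. Among the kept genes the count was 3 of 7, where 4.01% of all kept genes did so, and 0 of 7 lay below, where 4.35% of all kept genes did.

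**Figure D1:**
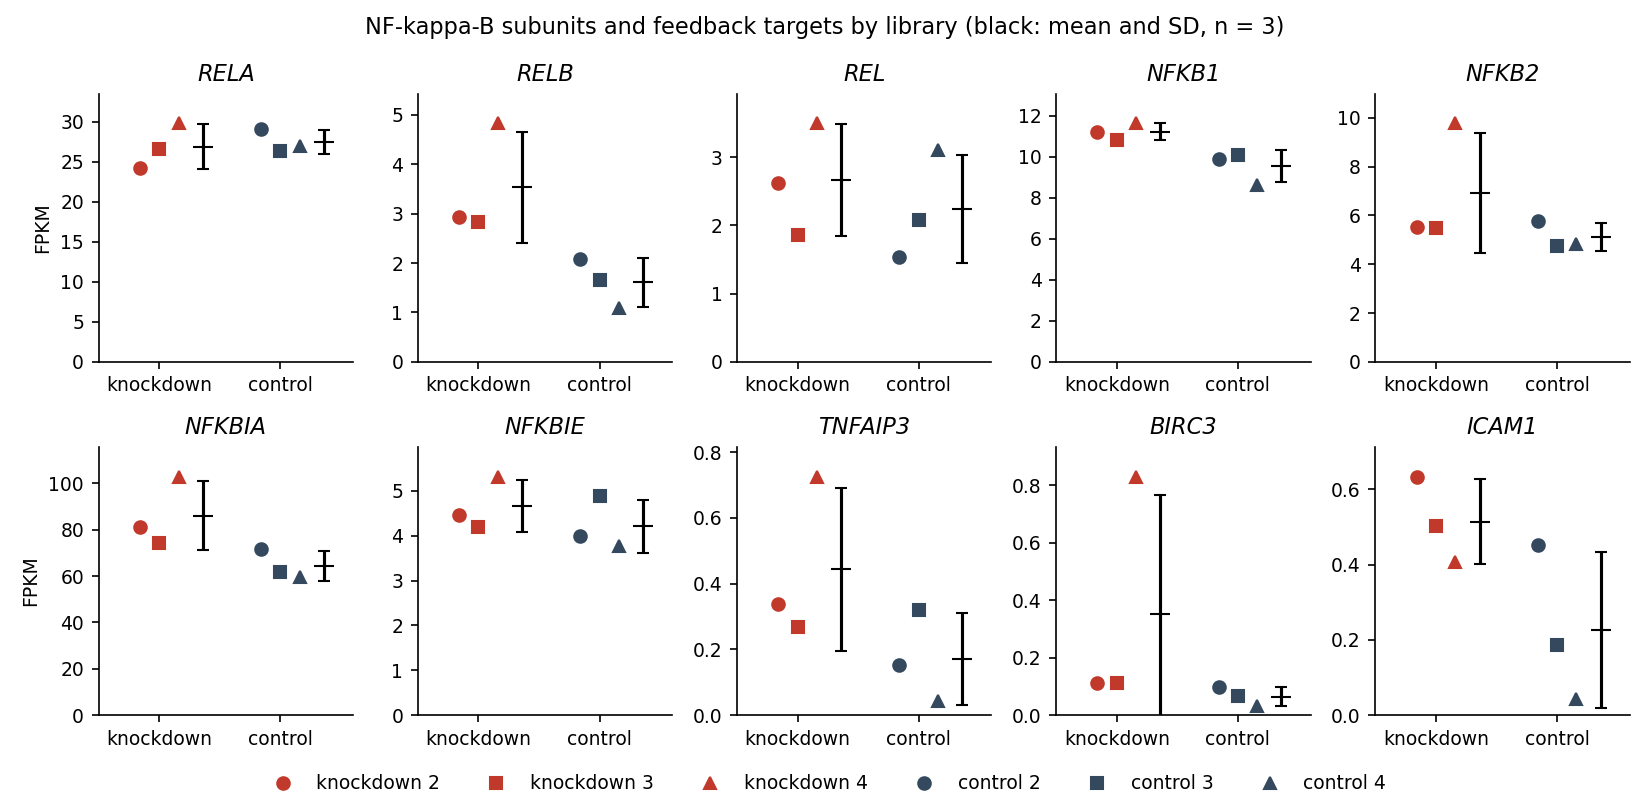
FPKM (vertical axes, from 0) of the 10 genes in the 3 knockdown libraries and the 3 control libraries; black marks give mean and SD (n = 3), and the lower SD bar of BIRC3 in knockdown libraries is cut at 0. RELB, NFKB1, NFKBIA and BIRC3 show no overlap between groups, and the knockdown replicate 4 triangle is the highest point for 9 of the 10 genes.

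RELA encodes p65, the subunit with the transactivation domain of the classical dimer, and was the most abundant subunit transcript. RELA (gene ENSG00000173039.18, chromosome 11, 65653596 to 65663094, minus strand, GRCh38) was at 24.2, 26.6 and 29.8 FPKM in knockdown libraries, against 29.1, 26.3 and 27.0 FPKM in control libraries. The groups overlapped: knockdown replicate 2 was the lowest library of all and knockdown replicate 4 the highest. The log2(FPKM + 1) difference, knockdown minus control, was -0.03 (SE 0.09), and its sign was positive without control replicate 2 and without knockdown replicate 2.

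RELB is the partner of p52 in the alternative pathway, which is driven by NIK and IKK-alpha. RELB (ENSG00000104856.13, chromosome 19, 45001430 to 45038198, plus strand) stood at 2.93, 2.83 and 4.83 FPKM in knockdown libraries, against 2.09, 1.65 and 1.10 FPKM in control libraries. Every knockdown library lay above every control, and knockdown replicates 2 and 3 were nearly equal. The means were 3.53 ± 1.12 FPKM in knockdown libraries and 1.61 ± 0.495 FPKM in controls (SD, n = 3 each), a ratio of 2.19. The log2 difference of RELB was 0.78 (SE 0.21), the widest among the 7 kept genes. It was 0.59 without knockdown replicate 4 and 0.44 without both libraries numbered 4.

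REL encodes c-Rel, a subunit best known from lymphocytes. REL (ENSG00000162924.14, chromosome 2, 60881521 to 60931610, plus strand) was at 2.63, 1.86 and 3.50 FPKM in knockdown libraries, against 1.54, 2.08 and 3.10 FPKM in control libraries. The groups overlapped, with a log2 difference of 0.18 (SE 0.23) that was 0.02 without knockdown replicate 4 or without control replicate 2, 0.35 without knockdown replicate 3 and 0.36 without control replicate 4. REL was the kept gene with the widest relative spread among controls, with an SD of 35.4% of the mean. It was also the exception among the 10 in that control replicate 4 held its highest control value. Another transcript annotated on the same strand covers 11.4% of the REL gene at its 3′ end, so its reads may be counted with it.

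NFKB1 and NFKB2 encode the precursors p105 and p100, which act as IkB-like inhibitors until they are processed to the subunits p50 and p52. NFKB1 (ENSG00000109320.11, chromosome 4, 102501329 to 102617302, plus strand) was at 11.2, 10.8 and 11.6 FPKM in knockdown libraries, against 9.89, 10.1 and 8.62 FPKM in control libraries. The groups did not overlap, but the gap was narrow: the lowest knockdown value was 10.8 FPKM and the highest control value 10.1 FPKM. The log2 difference was 0.22 (SE 0.08), and it was 0.15 without control replicate 4 and 0.13 without both libraries numbered 4.

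NFKB2 (ENSG00000077150.18, chromosome 10, 102394110 to 102402529, plus strand) was at 5.52, 5.49 and 9.77 FPKM in knockdown libraries, against 5.78, 4.74 and 4.81 FPKM in control libraries. Knockdown replicate 4 stood at 1.91 times the control mean, while knockdown replicates 2 and 3 stood at 1.08 and 1.07 times and within the control range. The log2 difference, 0.34 (SE 0.21), was 0.09 without knockdown replicate 4.

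Measured as shares of the summed FPKM of the 5 subunits, RELA made up 52.0%, 55.9% and 50.1% in knockdown libraries, against 60.1%, 58.6% and 60.5% in control libraries. RELB made up 6.30%, 5.95% and 8.11% in knockdown libraries, against 4.32%, 3.68% and 2.46% in control libraries. For both subunits the groups did not overlap, while for the shares of REL, NFKB1 and NFKB2 they did. NFKB1, for example, made up 24.1%, 22.7% and 19.5% in knockdown libraries, against 20.4%, 22.5% and 19.3% in control libraries. Since a share is taken within a library, these values do not depend on its scaling. The RELA level itself overlapped between groups, so its share also reflects the other subunits. How often such shares separate among other genes was not counted. The RELB level was 12.1%, 10.6% and 16.2% of the RELA level in knockdown libraries, against 7.18%, 6.27% and 4.08% in control libraries. The NFKB2 level was 49.2%, 50.8% and 84.1% of the NFKB1 level in knockdown libraries, against 58.4%, 47.1% and 55.8% in control libraries, so only knockdown replicate 4 lay outside the control range. The level of RELB exceeded that of REL in all 3 knockdown libraries and in 1 of the 3 controls, control replicate 2.

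**Figure D2:**
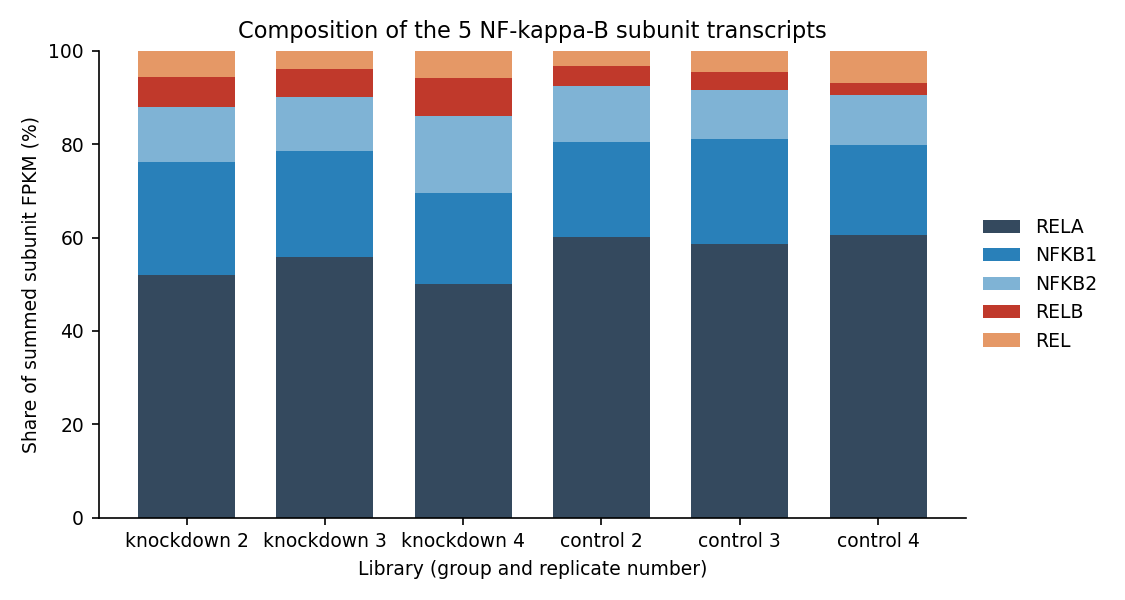
Share of the summed FPKM of the 5 subunit transcripts (vertical axis, percent) in each library, knockdown libraries on the left and control libraries on the right. The RELA share was 50.1% to 55.9% in knockdown libraries and 58.6% to 60.5% in controls.

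NFKBIA encodes IkB-alpha, which retains p65 dimers and is resynthesised soon after they are freed. NFKBIA (ENSG00000100906.10, chromosome 14, 35401511 to 35404749, minus strand) was the most abundant of the 10 transcripts. It was at 81.0, 74.3 and 103.0 FPKM in knockdown libraries, against 71.7, 61.7 and 59.8 FPKM in control libraries. No knockdown value fell within the control range. The means were 86.1 ± 15.0 FPKM in knockdown libraries and 64.4 ± 6.39 FPKM in controls (SD, n = 3 each), a ratio of 1.34, and the log2 difference was 0.40 (SE 0.14). It was 0.27 without knockdown replicate 4 and 0.22 without both libraries numbered 4. Within libraries, NFKBIA stood at 3.35, 2.79 and 3.46 times the RELA level in knockdown libraries, against 2.46, 2.34 and 2.22 times in control libraries, again without overlap. Against NFKBIE it stood at 18.1, 17.7 and 19.4 times in knockdown libraries and 18.0, 12.6 and 15.9 times in control libraries, with overlap.

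NFKBIE encodes IkB-epsilon, a slower-acting inhibitor. NFKBIE (ENSG00000146232.16, chromosome 6, 44258166 to 44265788, minus strand) was at 4.47, 4.20 and 5.32 FPKM in knockdown libraries, against 3.99, 4.88 and 3.77 FPKM in control libraries. The groups overlapped, and knockdown replicate 4 alone exceeded every control. The log2 difference was 0.12 (SE 0.12), and it was -0.08 with library weights and -0.02 without both libraries numbered 4. It was 0.04 without knockdown replicate 4, 0.06 without control replicate 4 and 0.21 without control replicate 3.

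TNFAIP3, BIRC3 and ICAM1 were below the filter, with control means of 0.172, 0.0642 and 0.227 FPKM, and the number of fragments behind such values is unknown. TNFAIP3 (ENSG00000118503.14, chromosome 6, 137867188 to 137883312, plus strand) encodes A20, which edits ubiquitin chains on signalling adaptors and so ends the response. It was at 0.337, 0.267 and 0.726 FPKM in knockdown libraries, against 0.153, 0.320 and 0.0429 FPKM in control libraries. Control replicate 3 lay above knockdown replicate 3, so the groups overlapped.

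BIRC3 (ENSG00000023445.13, chromosome 11, 102317450 to 102339403, plus strand) encodes cIAP2, a ubiquitin ligase of the TNF receptor complex. It was at 0.112, 0.111 and 0.830 FPKM in knockdown libraries, against 0.0964, 0.0650 and 0.0311 FPKM in control libraries. The groups did not overlap, but knockdown replicates 2 and 3 lay only just above control replicate 2, while knockdown replicate 4 stood at 12.9 times the control mean.

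ICAM1 (ENSG00000090339.8, chromosome 19, 10270835 to 10286615, plus strand) encodes a ligand of leukocyte integrins. It was at 0.634, 0.502 and 0.408 FPKM in knockdown libraries, against 0.452, 0.186 and 0.0425 FPKM in control libraries. The groups overlapped because knockdown replicate 4 lay below control replicate 2, and the controls themselves differed 10.6 times between highest and lowest. ICAM1 was the exception to the pattern of the other 9 genes, all of which were highest in knockdown replicate 4. Antisense genes cover 90.5% and 5.16% of the ICAM1 gene and 6.49% of TNFAIP3, and strand counting is not stated, so their reads cannot be told apart.

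Ordered by control mean, the levels ran NFKBIA, RELA, NFKB1, NFKB2, NFKBIE, REL, RELB, ICAM1, TNFAIP3 and BIRC3. In the controls NFKB2 and NFKBIE overlapped, as did REL and RELB, and as did ICAM1, TNFAIP3 and BIRC3. In knockdown libraries the order was the same except that RELB, at 3.53 ± 1.12 FPKM, stood before REL, at 2.66 ± 0.820 FPKM (SD, n = 3 each), with overlapping values.

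By library, 6 of the 10 genes in knockdown replicate 2, 5 in replicate 3 and 9 in replicate 4 exceeded all 3 controls. Among the 18663 genes above 0 in any library, 23.5%, 22.7% and 31.1% did so in knockdown replicates 2, 3 and 4. Of the 7 kept genes 3, 3 and 7 exceeded all controls, where 23.1%, 22.7% and 30.7% of all kept genes did. The median of the 7 kept genes lay 0.19, 0.09 and 0.50 above the control mean on the log2(FPKM + 1) scale in knockdown replicates 2, 3 and 4. Over all 6 libraries, knockdown replicate 4 held the highest value for 9 of the 10 genes and control replicate 4 the lowest value for 7. The shares of all genes that were highest or lowest in those libraries were not counted, so these counts only describe the 10 genes. The median log2 difference of the 7 kept genes was 0.22, against -0.01 for all 12164 kept genes. Without knockdown replicate 4 it was 0.09, and without both libraries numbered 4 it was 0.13. Without knockdown replicate 4, 5 of the 10 genes lay above all controls (RELB, NFKB1, NFKBIA, BIRC3 and ICAM1), where 10.2% of the genes above 0 in any library did so.

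**Figure D3:**
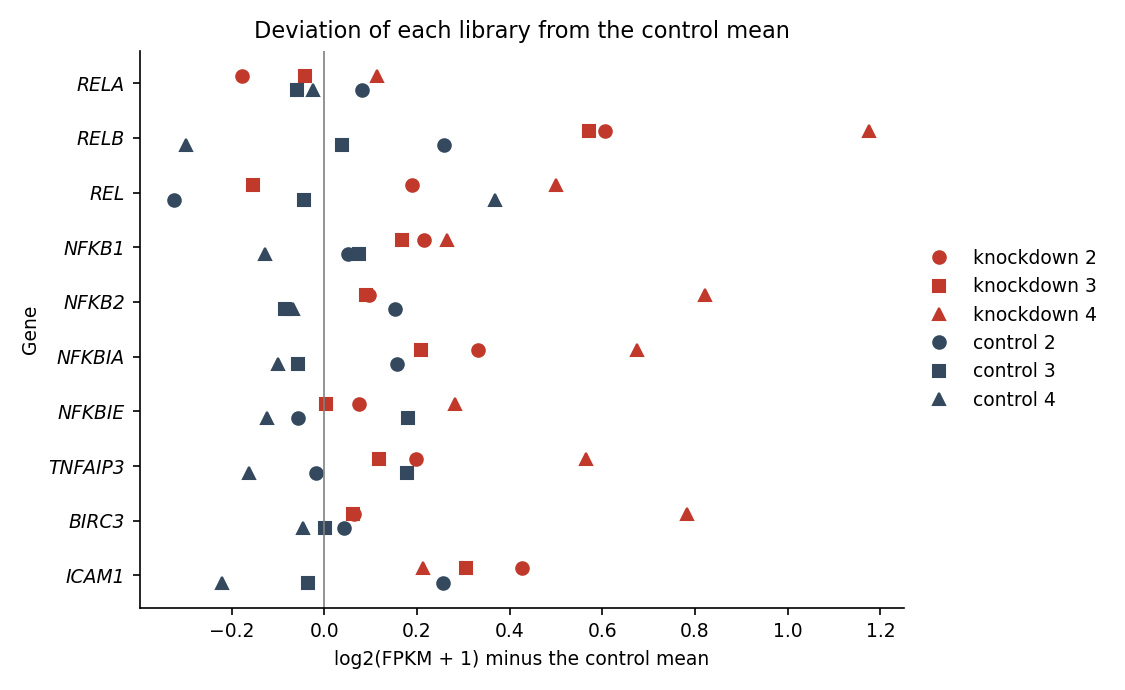
Deviation of each library from the control mean on the log2(FPKM + 1) scale (horizontal axis) for the 10 genes, with knockdown libraries in red above control libraries in dark blue. RELB reached 0.61, 0.57 and 1.18 in knockdown replicates 2, 3 and 4, and NFKB2 lay above the control range in replicate 4 alone.

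Interferon response genes moved with the same library. The 30 genes of the type I interferon list summed to 593, 114 and 12302 FPKM in knockdown libraries, against 73.1 to 79.1 FPKM in controls. ISG15 encodes a modifier related to ubiquitin and stood at 48.6, 2.40 and 1622 FPKM in knockdown replicates 2, 3 and 4, against 0, 0.15 and 0 FPKM in control libraries. IFI6, a mitochondrial interferon-induced protein gene, was at 184.8, 24.2 and 4043 FPKM in knockdown libraries, against 10.7, 10.6 and 9.63 FPKM in control libraries. ISG20, an exonuclease gene, was at 1.33, 1.05 and 33.9 FPKM in knockdown libraries, against 1.43, 0.99 and 0.72 FPKM in control libraries. The order of the knockdown libraries, 4 before 2 before 3, was also found in RELB, REL, NFKB1, NFKB2, NFKBIA, NFKBIE, TNFAIP3 and BIRC3. The share of all genes with this order was not counted. Knockdown replicates 2 and 3 were close in RELB (2.93 and 2.83 FPKM), NFKB2 (5.52 and 5.49 FPKM) and BIRC3 (0.112 and 0.111 FPKM). RELB, NFKB1, NFKBIA, BIRC3 and ICAM1 exceeded all controls also in knockdown replicate 3, where the interferon sum was smallest. Among the genes above 0 in any library, 22.7% exceeded all controls in that replicate. The part of the interferon response in these values was not tested.

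The 14 genes listed as targets of both NF-kappa-B and the interferon response summed to 1018, 983 and 4862 FPKM in knockdown libraries, against 680.3 to 959 FPKM in controls. Of the 14, 9 reached the filter only through the knockdown libraries, so no count or median over them is given. IRF7, a transcription factor of interferon induction, was at 6.34, 0.70 and 83.4 FPKM in knockdown replicates 2, 3 and 4, against 0.62, 0.75 and 0.61 FPKM in control libraries, so that knockdown replicate 3 lay within the control range. CXCL10, a chemokine gene, was at 2.44, 0.19 and 136.6 FPKM in knockdown libraries, against 0, 0.06 and 0 FPKM in control libraries. Both genes reached the filter only through the knockdown libraries, so no p is given for them.

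Other target genes of NF-kappa-B showed a mixed picture. Of 36 genes on this list 16 were kept, and 0 passed the threshold in either direction; 11 had a difference above 0 and 5 below, with a median of 0.04, where 46.7% of all kept genes were above 0. The median was -0.04 without knockdown replicate 4 and 0.02 without control replicate 3. It was 0.16 without knockdown replicate 2, 0.11 without knockdown replicate 3, 0.10 without control replicate 4 and 0.08 without control replicate 2. Without overlap, 3 of the 16 were higher (CCL2, CSF1 and PTX3) and 1 lower (CD44). Of all kept genes 4.01% were higher without overlap and 4.35% lower. CCL2, a monocyte chemokine gene, was at 7.94, 8.69 and 16.8 FPKM in knockdown libraries, against 6.20, 5.23 and 1.67 FPKM in control libraries (log2 difference 1.23, SE 0.42; unadjusted p = 0.0224, adjusted p = 0.9998, limma). PTX3, a soluble pattern recognition gene, was at 5.96, 5.69 and 6.41 FPKM in knockdown libraries, against 5.24, 4.91 and 4.18 FPKM in control libraries (log2 difference 0.28, SE 0.10; unadjusted p = 0.0255, adjusted p = 0.9998, limma). In both genes control replicate 4 was again the lowest library.

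CSF1, the macrophage growth factor gene, was singled out after its values were seen; it was at 5.35, 3.68 and 17.5 FPKM in knockdown libraries, against 3.60, 2.81 and 1.73 FPKM in control libraries (adjusted p = 0.9998, limma). CD44, a hyaluronan receptor gene, had a log2 difference of -0.18 (SE 0.13; adjusted p = 0.9998, limma). Many classical targets were low in this line: 13 of the 36 stayed below 0.1 FPKM in every library, among them the endothelial selectin gene SELE, the prostaglandin synthase gene PTGS2 and the growth factor gene CSF2, which were at 0 throughout.

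Upstream components had medians near 0. Of all kept genes 46.7% had a difference above 0, which is the share to set beside the counts below. All 7 other IkB proteins and IkB-binding inhibitors were kept, with 6 differences above 0, 1 below and a median of 0.08. That median was 0.16 without control replicate 2, 0.12 without control replicate 3 or without knockdown replicate 4, and close to 0, at 0.0024, without control replicate 4. NFKBIZ, the nuclear IkB-zeta gene, was at 1.98, 2.01 and 5.21 FPKM in knockdown libraries, against 2.07, 1.69 and 1.53 FPKM in control libraries, so that only knockdown replicate 4 stood out. NFKBID, another nuclear IkB, differed by 0.20 (SE 0.24) and COMMD1, which promotes turnover of bound p65, by -0.28 (SE 0.15). Of 15 kinase-level genes 14 were kept, 10 above 0 and 4 below, with a median of 0.07 that was 0.03 without control replicate 2 or without control replicate 4 and 0.04 without knockdown replicate 4. RIPK1, the scaffold kinase of the TNF receptor complex, was at 5.64, 5.11 and 9.45 FPKM in knockdown libraries, against 5.09, 4.69 and 4.05 FPKM in control libraries, without overlap. IRAK4, the proximal kinase of Toll-like receptor signalling, differed by 0.21 (SE 0.13), also without overlap, and TAB1, a partner of the kinase TAK1, by -0.15 (SE 0.10). RIPK1 and IRAK4 were the 2 of the 14 kept kinase-level genes without overlap, where 4.01% of all kept genes were higher in this way. The kinase genes of the IKK complex, CHUK and IKBKB, differed by 0.01 (SE 0.09) and 0.08 (SE 0.10). MAP3K14, the gene of NIK, differed by 0.09 (SE 0.12). None of these passed the threshold (adjusted p = 0.9998 each, limma).

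Among the adaptor genes, all 10 of them kept, 7 differences were above 0 and 3 below, where 46.7% of all kept genes were above 0. Their median was 0.04. That median was -0.01 without control replicate 4, 0.01 without control replicate 2, -0.02 without both libraries numbered 4 or with library weights, and 0.06 without knockdown replicate 3 or without control replicate 3. TICAM1, the adaptor of TLR3, had a log2 difference of 0.14 (SE 0.07) without overlap, TIRAP one of 0.14 (SE 0.11) and FADD one of -0.08 (SE 0.08). TICAM1 was the 1 adaptor gene of 10 without overlap, where 4.01% of all kept genes were higher in this way. Of 20 ubiquitin-system genes 19 were kept, 12 above 0 and 7 below, with a median of 0.05 that was 0.08 without knockdown replicate 3 and 0.03 without knockdown replicate 4 or without control replicate 2. The deubiquitinase OTUD7B differed by 0.19 (SE 0.09), and RNF31 and SHARPIN, which sit in the same linear ubiquitin ligase, by 0.42 (SE 0.24) and -0.10 (SE 0.09). RBCK1, the other subunit of that ligase, named after its values were seen, was at 19.8, 19.1 and 69.8 FPKM in knockdown libraries, against 18.9, 19.4 and 17.9 FPKM in control libraries. Its difference was 0.65 (SE 0.46), with knockdown replicate 4 far above the rest and knockdown replicate 3 within the control range. ITCH, a ligase that works with A20, was the 1 of the 19 kept ubiquitin-system genes without overlap, with a difference of 0.10 (SE 0.08). That count is near the 4.01% of all kept genes that were higher without overlap. ITCH was named after its values were seen. None of these passed the threshold (adjusted p = 0.9998 each, limma).

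**Figure D4:**
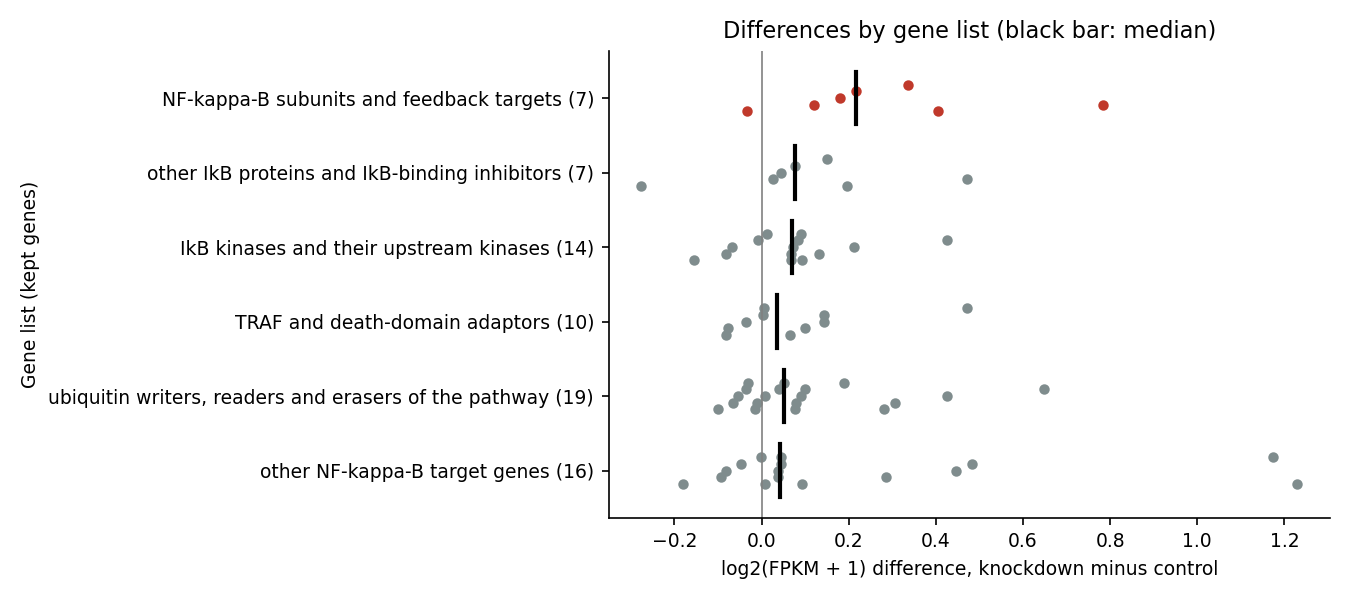
Difference in log2(FPKM + 1), knockdown minus control (horizontal axis), for the kept genes of 6 lists, with the number of genes in brackets and a black bar at the median. The medians are 0.22 for the 7 subunits and feedback genes and 0.04 to 0.08 for the 5 lists of other IkB proteins, kinases, adaptors, ubiquitin-system genes and other targets; the receptor, interferon, shared target and marker lists are not plotted.

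Receptors and ligands of the pathway were scarce. Of 18 receptors 1 was kept, TNFRSF12A, the receptor of TWEAK, at 4.84, 5.76 and 1.79 FPKM in knockdown libraries, against 5.61, 4.27 and 2.28 FPKM in control libraries (log2 difference -0.02, SE 0.38; adjusted p = 0.9998, limma). TLR3, a receptor of double-stranded RNA, was at 0 in every library except knockdown replicate 4, where it was at 0.17 FPKM. None of the 10 ligand genes reached the filter, and 9 of them stayed below 1 FPKM in every library. The tenth was TNF, the classical inducer, named here after its values were seen: it was at 0.73, 0.58 and 3.14 FPKM in knockdown libraries, against 0.32, 0.56 and 0.09 FPKM in control libraries. Its groups did not overlap, though knockdown replicate 3 and control replicate 3 were nearly equal. Among the ligands LTA, the lymphotoxin gene, was likewise higher without overlap at 0.25 to 0.87 FPKM in knockdown libraries and 0.05 to 0.19 FPKM in controls, as was NGFR, the neurotrophin receptor gene, among the receptors, at 0.29 to 0.40 FPKM in knockdown libraries and 0.20 to 0.27 FPKM in controls. Higher without overlap were thus 2 of the 10 ligands and 1 of the 18 receptors, against 4.02% of the genes above 0 in any library. LTA and NGFR were named after their values were seen.

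The genes whose pattern lay nearest to RELB were sought by the root-mean-square difference, over the 6 libraries, of the log2(FPKM + 1) deviation from the control mean. PXDC1 was nearest, at 0.13, with 1.57, 1.55 and 3.53 FPKM in knockdown libraries, against 0.84, 0.89 and 0.36 FPKM in control libraries. It was followed by PVRL2, an adhesion receptor gene (0.13), GBP2, an interferon-induced GTPase gene (0.17), and EGR1, an immediate early transcription factor gene (0.19). Of the other kept genes of the loop NFKBIA lay nearest to RELB, at 0.29, then NFKB2, at 0.34, NFKB1, at 0.45, NFKBIE, at 0.51, REL, at 0.57, and RELA, at 0.61. These genes were picked for the likeness of their values to those of RELB, so the shared order of libraries is not a result. PXDC1 stayed below 1 FPKM in every control and reached the filter only through the knockdown libraries.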

How the data were processed

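Polyadenylated RNA of 6 BE(2)-M17 libraries (3 knockdown, 3 control) was sequenced. The deposited values were FPKM, 1 column per library. TopHat2, Cuffdiff and the build hg38 are named, per the submitters' processing notes, while versions, annotation and strand setting are not stated there. A count model was not used, because FPKM do not keep counts. Groups and replicate numbers came from the sample titles.

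The filter kept genes averaging 1 FPKM or more, and log2(FPKM + 1) was compared, two-sided, with limma 3.58.1 in R 4.3.3 (intensity trend, no covariate, Benjamini-Hochberg over 12164 genes, threshold 0.05); fold changes on this scale understate low genes. The fit was tested on simulated data. Those data took the spread of the controls for both groups, without a library standing apart like knockdown replicate 4. They therefore cannot show how the fit performs with such a library. The 10 genes and all lists were chosen with earlier results of these data known. List genes (215 of 215 matched by symbol) were named by rule: up to 2 with the smallest p above 0 and 1 below 0 per list, and the first 3 kept interferon genes; IKK and NIK genes, TLR3, CSF1, ITCH, RBCK1, TNF, LTA and NGFR were added after their values were seen, as were SELE, PTGS2 and CSF2. The nearest 4 genes to RELB were named. Promoters are RefSeq (GRCh38.p14); coordinates are GENCODE 29. Other pseudocounts, filters, scalings, variance models, library weights, a replicate block and left-out libraries were tried as alternatives.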

Additional observations from a re-analysis of the deposited data

How the results depend on the processing

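Over 17 alternatives (other pseudocounts, filters, scalings, variance models, library weights, the replicate block, each library left out, and both libraries numbered 4 left out) the median log2 difference of the kept NF-kappa-B genes stayed above 0, between 0.09 and 0.35, and 2 to 4 of them were higher without overlap. Leaving out each library gave medians of 0.09 to 0.35 and 3 to 4 such genes, but the share of all kept genes without overlap grew as well. It was 4.01% with all libraries and 3.19% to 5.32% under other filters and scalings. With 1 library left out it was 6.25% to 10.99%, and without both libraries numbered 4 it was 16.9%, so a steady count is not a steady excess. Of 116 single-gene values under alternatives 110 moved by less than the SD of the knockdown libraries, and RELA and NFKBIE changed sign in some. That SD includes knockdown replicate 4, so the count is no measure of stability. It passed NFKB2 going from 0.34 to 0.06 without both libraries numbered 4, and REL from 0.18 to 0.02 without knockdown replicate 4. The count of genes past the threshold, 0 each way, was 9 higher and 13 lower with library weights and 1 lower without both libraries numbered 4; it was 0 without any single library. The library weights stopped before full convergence. MIAT was at -1.58 with library weights, past the threshold (limma, adjusted p = 0.00299). Leaving out both libraries numbered 4 gave -1.54 (limma, adjusted p = 0.0118), also past it. It ran from -1.71 to -1.24 when each library was left out. MIAT had no value at a mean of at least 5 FPKM. The cause of these changes was not tested. With the replicate block 0 genes passed either way and the adjusted p of MIAT was 0.194 (limma); in this balanced design a block cannot move the differences themselves (MIAT -1.42). Same-numbered libraries deviated together at r = 0.09, 0.17 and 0.32 across genes, and knockdown replicates 2 and 3 each correlated better with another control, so the numbers were not taken as pairs. With FPKM alone the precision of the 3 genes below 1 FPKM cannot be given.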
